A study of Homo sapiens with 9 samples.

Results

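The genes described here encode enzymes that build serine, asparagine, proline and one-carbon units. They were chosen by name, with earlier results of these data known but by no threshold on a value, as the 10 genes PHGDH, PSAT1, PSPH, SHMT1, SHMT2, MTHFD2, ALDH1L2, ALDH18A1, PYCR1 and ASNS, out of 27615 genes in the longest of the deposited lists. RNA-seq was carried out on MDA-MB-231, an established breast cancer line of the triple-negative type. Cells received vehicle (DMSO), the cannabinoid receptor 1 antagonist rimonabant, or TXX-1-10, a compound derived from rimonabant, and each of the 3 groups has 3 libraries. All 3 groups are the same line, with no genetic change named in the labels, and vehicle-treated cells were the control for both compounds. At what dose and for how long these cells were treated is not given in the sources used here, so the compounds were compared without knowing that doses matched. Nothing in the labels says that the libraries of a group came from separate cultures, so the p-values measure the spread between libraries, which may be technical.

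Serine is made from the glycolytic intermediate 3-phosphoglycerate by PHGDH, PSAT1 and PSPH in turn. Serine hydroxymethyltransferases then split serine into glycine and a folate-bound one-carbon unit, SHMT1 in the cytosol and SHMT2 in the mitochondrion, and MTHFD2 and ALDH1L2 oxidize that unit further in the mitochondrion. ALDH18A1 and PYCR1 make proline from glutamate, and ASNS makes asparagine from aspartate with nitrogen from glutamine. Many of these genes are known targets of ATF4, a transcription factor translated more efficiently when eIF2α is phosphorylated, and ATF4 is known to bind composite C/EBP-ATF elements of which the ASNS promoter is a classical example. MDA-MB-231 is known as a breast cancer line with low PHGDH.

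Promoters of the genes that changed most are shown first, since the text returns to them beside the expression values. RefSeq windows of 250 bases before the annotated start (GRCh38.p14) were matched by symbol for 6 of the 10 genes, in 7 windows. PSPH, SHMT2, ALDH1L2 and PYCR1 were not matched. The PHGDH window lies inside the span of the counted gene (chr1:119648411-119744226), so its annotated start is not the start of that span. The 120 bases before the start are printed 5′ to 3′ on the gene's strand, with matches to the C/EBP-ATF composite core TGATGNAA or to the CCAAT box (CCAAT, or ATTGG on the other strand) in capitals.
ASNS, chr7:97872409-97872528, minus strand: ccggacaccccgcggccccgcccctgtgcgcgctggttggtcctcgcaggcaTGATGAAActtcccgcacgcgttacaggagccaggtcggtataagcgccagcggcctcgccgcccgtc
PHGDH, chr1:119711814-119711933, plus strand: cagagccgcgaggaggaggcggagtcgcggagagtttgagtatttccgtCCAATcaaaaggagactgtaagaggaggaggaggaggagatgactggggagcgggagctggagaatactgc
PSAT1, chr9:78297005-78297124, plus strand: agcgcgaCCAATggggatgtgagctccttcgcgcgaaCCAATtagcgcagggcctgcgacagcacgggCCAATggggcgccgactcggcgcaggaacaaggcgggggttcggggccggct
SHMT1, chr17:18363551-18363670, minus strand: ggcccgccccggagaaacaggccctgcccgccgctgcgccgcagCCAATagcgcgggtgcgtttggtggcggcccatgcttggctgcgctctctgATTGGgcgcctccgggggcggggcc
Only 1 of the 7 windows held the composite core on either strand, the upstream ASNS window, where TGATGAAA lay at positions -68 to -61 from the start. Of all 35116 promoter windows of this length, 3.144% held it. The ASNS promoter is a classical example of such elements, as given above, so its match was known beforehand. The CCAAT box was found in 4 of the genes (PHGDH, PSAT1, MTHFD2 and SHMT1) and in 32.008% of all windows. PSAT1 held 3 copies within 113 bases of its start, and SHMT1 held 2, 1 on each strand. An E-box (CACGTG) was found in ALDH18A1 alone among these windows, at -136 to -131, against 6.345% of all windows. GC boxes (GGGCGG, either strand) were in ASNS, PSAT1 and SHMT1 and in 42.639% of all windows. The motifs do not overlap one another in the printed sequences. A match describes letters in a window and not a bound site.

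The libraries set limits on what could be tested. FPKM values rest on library totals of 17078370 to 19277808 reads. Each gene of the set stands at the same position in every list that holds it. Each of the 9 lists ends partway through a line after 4237 to 27615 genes. The value of a gene that is not listed is therefore unknown and was not taken as 0. PSAT1, SHMT2, MTHFD2 and ALDH18A1 are listed for all 9 libraries and entered a fit of 4236 genes. PHGDH, PSPH, SHMT1 and PYCR1 are not listed for rimonabant replicate 1 and entered a fit of 9369 genes in the other 8 libraries. ASNS is not listed for that library or for vehicle replicate 2 and was taken from a fit of 11200 genes in 7 libraries, which was added after the data were seen. ALDH1L2 is listed for 5 libraries and has values without a test. Compared with their fellow replicates, rimonabant replicate 1 and TXX-1-10 replicate 3 had fewer counts on longer genes (Spearman rho -0.69 in each, over the genes of all 9 lists). The part of gene length in the results was tested only as a correction among the alternatives. Mitochondrially encoded genes held 6.06% to 6.86% of the library total in vehicle and rimonabant libraries and 3.06% to 3.51% in TXX-1-10 libraries, and the part of this shift in the results was not tested. Of the mesenchymal markers, VIM had a mean of 280 FPKM in vehicle-treated cells, and CD44 had 39.7 in vehicle, 47.3 in rimonabant and 27.7 in TXX-1-10 libraries. Of the 8 luminal markers, ESR1 and PGR had at most 13 counts and CDH1 was at 0 where listed, whereas KRT18 had 74.8 FPKM with vehicle, KRT19 28.9, ERBB2 9.40, EPCAM 5.09 and GATA3 1.35. KRT18, KRT19 and ERBB2, the 3 luminal markers tested, fell with TXX-1-10, to 46.2, 21.0 and 7.17 FPKM. With rimonabant they had 44.1, 17.7 and 9.06 FPKM, and 2 of the 3 fell. Of the fibroblast markers, COL1A1 had a mean of 0.691 FPKM in vehicle, 0.448 in rimonabant and 0.321 in TXX-1-10 libraries, PDGFRB had 0.478, 0.113 and 0.0914, DCN had at most 9 counts, and COL1A2 and LUM had at most 2 counts where listed. The leukocyte marker PTPRC had at most 10 counts, LYZ was at 0 where listed, and the endothelial PECAM1 had at most 23 counts. The part of these markers in the results was not tested.

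In vehicle-treated cells the genes of the set differed widely in level per length. SHMT2 had the highest level (68.2 ± 1.16 FPKM, SD, n = 3), followed by PSAT1 (61.9 ± 1.74), ALDH18A1 (30.3 ± 0.765), PYCR1 (15.7 ± 0.946), PSPH (13.6 ± 1.02), MTHFD2 (10.0 ± 0.252) and SHMT1 (6.24 ± 0.325). PHGDH (0.595 ± 0.0644, n = 3) and ASNS (0.582 ± 0.0428, n = 2) lay far below them, and ALDH1L2 was lowest (0.134 ± 0.0347, n = 2). The ranges of PHGDH and ASNS overlapped, and those of all other neighbours in this order did not. Serine synthesis in the vehicle-treated line combined a first enzyme below 1 FPKM with a second enzyme near the top of the set. In FPKM, PSAT1 stood 91.7 to 118 times above PHGDH within a library. This ratio depends on the gene lengths used, 9217 bases for PHGDH and 2188 for PSAT1. Their counts with vehicle were 83 to 104 and 2263 to 2397.

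**Figure D1:**
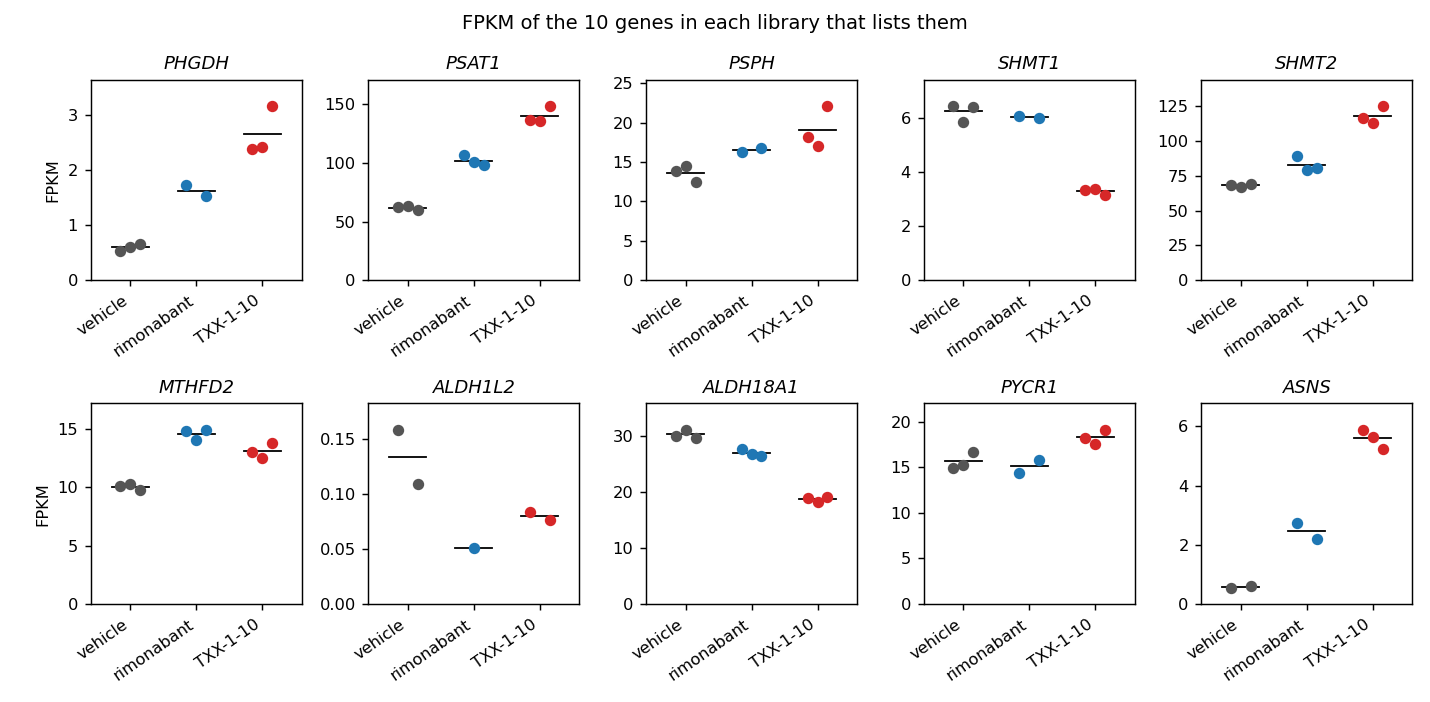
FPKM (vertical axes, linear and starting at 0) of each of the 10 genes in every library that lists it, for vehicle, rimonabant and TXX-1-10. Points are libraries and bars are group means. PHGDH, PSAT1, PSPH, SHMT2 and ASNS step upward from vehicle to rimonabant to TXX-1-10 without overlap, PSPH narrowly between the compounds. SHMT1 and ALDH18A1 are lowest in TXX-1-10-treated cells.

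TXX-1-10 against vehicle asked how the compound shifted these enzymes. Genes of serine and asparagine synthesis rose, led by ASNS at 9.58-fold, PHGDH at 4.44-fold and PSAT1 at 2.26-fold. The mitochondrial folate genes SHMT2 and MTHFD2 rose by 1.73-fold and 1.31-fold, whereas the cytosolic SHMT1 fell 1.90-fold. In proline synthesis the first enzyme, ALDH18A1, fell 1.62-fold while PYCR1 rose 1.17-fold. Of the 8 genes with a test in the fits of 9 and 8 libraries, 6 rose and 2 fell at an adjusted p under 0.05 (edgeR's quasi-likelihood test, Benjamini-Hochberg over all genes of the fit). Of all genes 74.4% passed in the fit of 9 libraries (30.5% higher and 43.8% lower) and 75.3% in that of 8 (34.7% and 40.6%). Called changed, meaning a log2 fold change of 1 or more in size as well, were 2 of the 8, PSAT1 in the fit of 9 libraries, where 11.8% of genes were called and 4.2% were called higher, and PHGDH in the fit of 8, where 12.7% were called and 5.28% were called higher. PHGDH reached the minimum mean of 1 FPKM for testing only through the treated groups, so its call is conditional on that. The same holds for ASNS, whose rise comes from the fit of 7 libraries and whose level is uncertain, as given below. The median log2 fold change of the 8 tested genes was 0.44, against -0.09 and -0.04 over all genes of these fits. A level in bulk RNA cannot separate more RNA per cell from more cells that express the gene.

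Rimonabant against vehicle moved fewer of the genes, and all but MTHFD2 had a smaller log2 fold change in size than with TXX-1-10. Again ASNS (4.23-fold), PHGDH (2.73-fold) and PSAT1 (1.65-fold) had the largest rises of the set, and MTHFD2 rose 1.45-fold. Of the 8 tested genes 5 rose, ALDH18A1 fell, and SHMT1 and PYCR1 did not pass. Of all genes 48.9% passed in the fit of 9 libraries (23.7% higher and 25.2% lower) and 46.5% in that of 8 (23.7% and 22.8%). Only PHGDH was called, in a fit where 1.49% of all genes were called and 0.736% were called higher. This call too is conditional on the entry of PHGDH through the treated groups, as is the rise of ASNS on its own entry. In the fit of 9 libraries 1.13% were called and 0.519% were called higher, with none of the 4 genes of the set among them. The median of the 8 log2 fold changes was 0.28, against -0.02 and 0.003 over all genes. The comparisons of both compounds with vehicle share the vehicle libraries, so their values are given side by side.

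**Figure D2:**
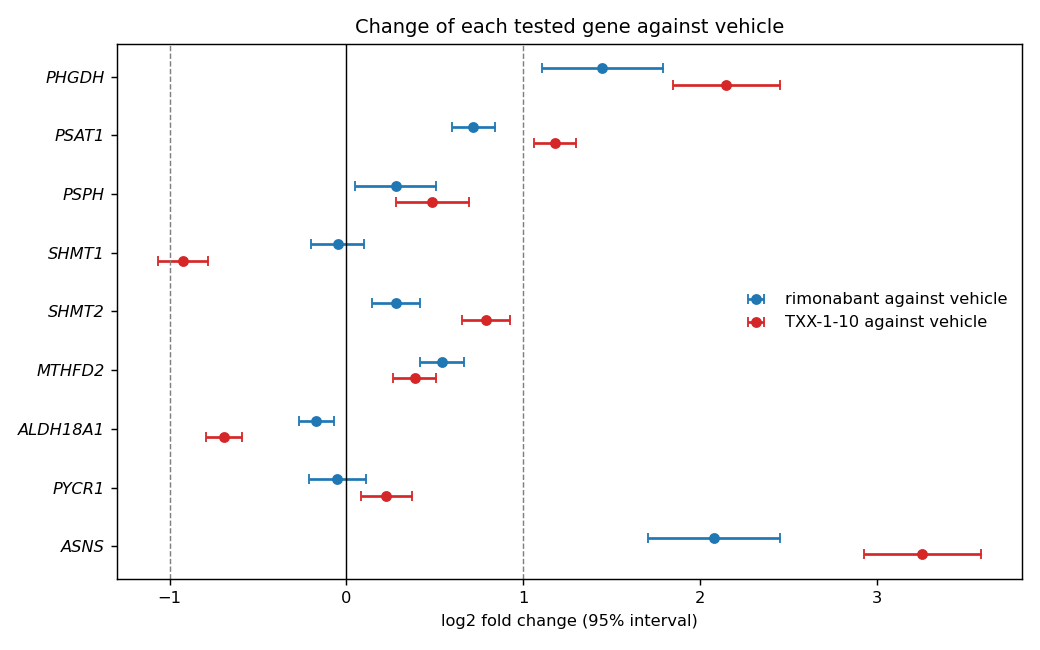
Log2 fold change (horizontal axis) of the 9 genes with a test, rimonabant against vehicle in blue and TXX-1-10 against vehicle in red, with 95% intervals from the fit. Dashed lines mark the fold threshold of 1, which ASNS and PHGDH pass with both compounds and PSAT1 with TXX-1-10.

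The serine synthesis genes changed most at the first enzyme and least at the last. PHGDH (ENSG00000092621, chr1:119648411-119744226, plus strand, GRCh38), the dehydrogenase that commits 3-phosphoglycerate to serine, had 83, 96 and 104 counts in the vehicle libraries, which is 0.527, 0.604 and 0.655 FPKM. Counts were 300 and 260 in rimonabant replicates 2 and 3 (1.73 and 1.52 FPKM), and 422, 409 and 536 in the TXX-1-10 libraries (2.38, 2.41 and 3.16 FPKM). The groups did not overlap, with vehicle lowest and TXX-1-10 highest. The log2 fold change was 2.15 with TXX-1-10 (SE 0.14, adjusted p = 2.74e-08) and 1.45 with rimonabant (SE 0.16, adjusted p = 2.34e-05). Among 9369 genes PHGDH held rank 51 from the highest rise with TXX-1-10 and rank 11 with rimonabant. Its mean level in vehicle was below the minimum of 1 FPKM that tested genes had to reach over all libraries. It passed that filter only through the treated groups, and its calls and ranks are conditional on that. After TXX-1-10 its mean of 2.65 FPKM was still the lowest of the 9 tested genes, below the 3.29 FPKM of SHMT1. In counts these genes overlapped there, with 409 to 536 for PHGDH and 425 to 467 for SHMT1.

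PSAT1 (ENSG00000135069, chr9:78297143-78330093, plus strand), the aminotransferase of the second step, had 62.1, 63.5 and 60.1 FPKM with vehicle. It had 106, 101 and 98.2 FPKM with rimonabant and 136, 136 and 148 FPKM with TXX-1-10. These groups did not overlap either, and the spread within each was small beside the steps between them. The log2 fold change was 1.18 with TXX-1-10 (SE 0.05, adjusted p = 2.04e-08) and 0.72 with rimonabant (SE 0.05, adjusted p = 6.91e-06), ranks 126 and 63 of 4236 genes. PSAT1 is the gene whose printed promoter held 3 CCAAT boxes.

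PSPH (ENSG00000146733, chr7:56011051-56051604, minus strand), the phosphatase that releases serine, changed least. Its levels were 13.9, 14.5 and 12.5 FPKM with vehicle, 16.3 and 16.8 with rimonabant, and 18.2, 17.01 and 22.1 with TXX-1-10. All treated libraries were above all vehicle libraries, and TXX-1-10 replicate 3 stood highest. The log2 fold change of 0.49 with TXX-1-10 passed (SE 0.09, adjusted p = 4.66e-04). That of 0.28 with rimonabant passed narrowly (adjusted p = 0.0470) and did not pass with the replicate number as a block (0.26, adjusted p = 0.0964) or when any of 6 of the 8 libraries was left out, vehicle replicates 1, 2 and 3, rimonabant replicates 2 and 3 and TXX-1-10 replicate 1 (adjusted p 0.0520 to 0.188). The pseudogene PSPHP1 had 70 to 127 counts where listed, also highest in TXX-1-10 replicate 3. The sequences were not compared, so whether reads are split between it and PSPH is not known, and the level of PSPH is uncertain.

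As a description, the ratio of PSAT1 to PHGDH in FPKM was 118, 105 and 91.7 in the vehicle libraries. It was 58.4 and 64.5 in rimonabant replicates 2 and 3 and 57.3, 56.4 and 47.0 in the TXX-1-10 libraries. The step from PHGDH to PSAT1 was thus narrower in treated than in vehicle-treated cells, with no overlap between vehicle and either compound.

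The hydroxymethyltransferases of the cytosol and the mitochondrion moved apart with TXX-1-10. SHMT2 (ENSG00000182199, chr12:57229327-57234935, plus strand), the mitochondrial enzyme, had 68.2, 67.1 and 69.4 FPKM with vehicle, 89.0, 79.2 and 80.4 with rimonabant, and 117, 112 and 125 with TXX-1-10. SHMT1 (ENSG00000176974, chr17:18327860-18363563, minus strand), its cytosolic counterpart, had 6.45, 5.87 and 6.41 FPKM with vehicle, 6.06 and 6.005 with rimonabant, and 3.33, 3.38 and 3.17 with TXX-1-10. SHMT2 levels separated by treatment, whereas SHMT1 overlapped between vehicle and rimonabant and was lower in all 3 TXX-1-10 libraries.

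SHMT2 rose by 0.79 on the log2 scale with TXX-1-10 (SE 0.06, adjusted p = 9.38e-07) and by 0.28 with rimonabant (SE 0.06, adjusted p = 0.00367). SHMT1 had a log2 fold change of -0.92 with TXX-1-10 (SE 0.06, adjusted p = 6.42e-08) and of -0.05 with rimonabant, where the 95% interval ran from -0.20 to 0.10 (adjusted p = 0.579). SMCR8, which shares 196 exon bases with SHMT1 on the opposite strand, had 1523 to 1598 counts with vehicle, 1844 to 2714 with rimonabant and 3439 to 4695 with TXX-1-10. The counting was not stated to use strand, and reads from the shared bases cannot be assigned to either gene. The ratio of SHMT2 to SHMT1 was 10.6, 11.4 and 10.8 in the vehicle libraries, 13.1 and 13.4 with rimonabant and 35.1, 33.3 and 39.4 with TXX-1-10.

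**Figure D3:**
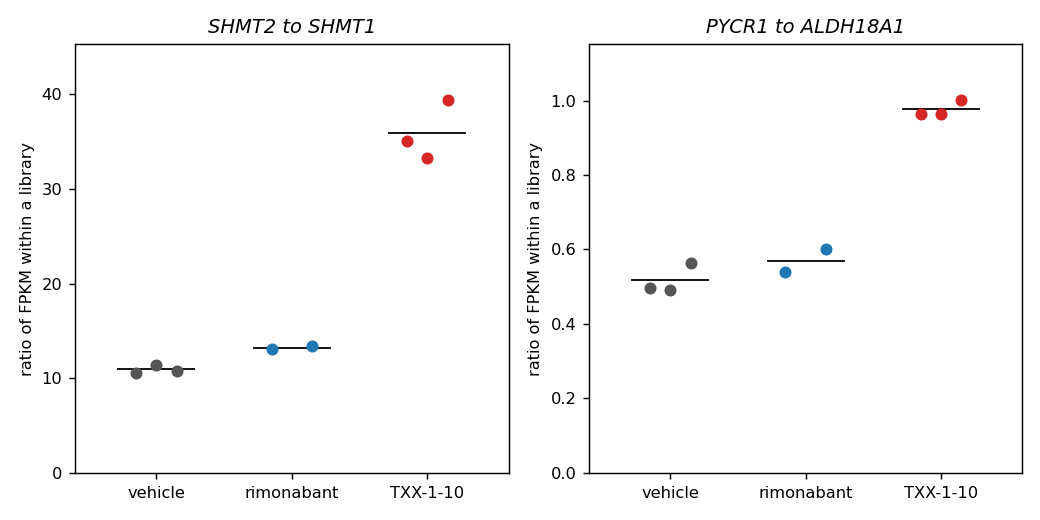
Ratio of FPKM within each library (vertical axes, linear, from 0) of SHMT2 to SHMT1 on the left and of PYCR1 to ALDH18A1 on the right. Points are libraries and bars are group means. The TXX-1-10 libraries stand apart at 33.3 to 39.4 and at 0.963 to 1.002, above all others.

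MTHFD2 and ALDH1L2 follow SHMT2 in the mitochondrial folate pathway. MTHFD2 (ENSG00000065911, chr2:74198562-74217565, plus strand), a dehydrogenase and cyclohydrolase, had 10.1, 10.2 and 9.73 FPKM with vehicle, 14.8, 13.99 and 14.9 with rimonabant, and 13.0, 12.5 and 13.8 with TXX-1-10. It was the only tested gene of the set with a higher mean in rimonabant than in both other groups. Its log2 fold change was 0.39 with TXX-1-10 (SE 0.06, adjusted p = 1.06e-04) and 0.54 with rimonabant (SE 0.06, adjusted p = 4.18e-05). SLC4A5, which shares 1324 exon bases with it on the opposite strand, had at most 20 counts where listed.

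ALDH1L2 (ENSG00000136010, chr12:105019784-105084577, minus strand), which oxidizes 10-formyltetrahydrofolate, had few reads. It had 23 and 16 counts in vehicle replicates 1 and 3, 8 in rimonabant replicate 3, and 13 and 12 in TXX-1-10 replicates 2 and 3. The exact Poisson 95% intervals, which cover counting error only, were 14.6 to 34.5 and 9.15 to 26.0 for vehicle, 3.45 to 15.8 for rimonabant, and 6.92 to 22.2 and 6.20 to 21.0 for TXX-1-10. With 1 rimonabant library and overlapping intervals, a difference was not detectable at this depth. C12orf45, which overlaps it on the opposite strand and shares 145 exon bases, had 399 to 574 counts.

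Proline synthesis changed in opposite directions at its ends with TXX-1-10. ALDH18A1 (ENSG00000059573, chr10:95605929-95656706, minus strand), which converts glutamate toward pyrroline-5-carboxylate, had 30.1, 31.1 and 29.7 FPKM with vehicle, 27.6, 26.7 and 26.4 with rimonabant, and 18.9, 18.3 and 19.1 with TXX-1-10. PYCR1 (ENSG00000183010, chr17:81932384-81942412, minus strand), which reduces that intermediate to proline, had 14.95, 15.3 and 16.7 FPKM with vehicle, 14.4 and 15.8 with rimonabant, and 18.2, 17.6 and 19.1 with TXX-1-10. The 3 groups did not overlap for ALDH18A1, whereas vehicle and rimonabant overlapped for PYCR1.

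ALDH18A1 had a log2 fold change of -0.69 with TXX-1-10 (SE 0.05, adjusted p = 2.83e-07) and of -0.17 with rimonabant (SE 0.04, adjusted p = 0.00983). Without vehicle replicate 2 the second was -0.15 with an adjusted p of 0.0508 in edgeR. PYCR1 rose by 0.22 with TXX-1-10 (SE 0.07, adjusted p = 0.00840). With rimonabant its log2 fold change was -0.05, with a 95% interval from -0.21 to 0.11 (adjusted p = 0.606). The ratio of PYCR1 to ALDH18A1 was 0.497, 0.492 and 0.565 with vehicle, 0.540 and 0.600 with rimonabant, and 0.965, 0.963 and 1.002 with TXX-1-10, so that both transcripts reached similar levels per length in the TXX-1-10 libraries. PYCR1 shares 408 exon bases with MYADML2 on the same strand, which had at most 4 counts where listed.

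ASNS (ENSG00000070669, chr7:97852118-97872542, minus strand) rose most of the set with both compounds. It had 42 and 47 counts in vehicle replicates 1 and 3 (0.552 and 0.613 FPKM), 229 and 182 in rimonabant replicates 2 and 3 (2.73 and 2.21 FPKM), and 506, 462 and 430 in the TXX-1-10 libraries (5.89, 5.64 and 5.24 FPKM). The 3 groups were separated by wide gaps. In the fit of 7 libraries the log2 fold change was 3.26 with TXX-1-10 (SE 0.15, adjusted p = 8.06e-09) and 2.08 with rimonabant (SE 0.17, adjusted p = 1.23e-05), ranks 22 and 11 of 11200 genes. ASNS was called in both, where 14% of genes were called with TXX-1-10 (6.31% higher) and 2.12% with rimonabant (1.08% higher). As with PHGDH, its mean in vehicle was below 1 FPKM, so it passed the filter only through the treated groups, and its calls and ranks are conditional on that. Its promoter is the one that held the composite core among the windows searched, a match known beforehand.

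The level of ASNS itself is uncertain. The transcript AC079781.5 spans the whole gene on the same strand and shares 1985 of its 4455 exon bases, or 44.6%, and how reads over shared exons were counted is not given in the sources used here. AC079781.5 had 35 and 65 counts in vehicle replicates 1 and 3, 64 and 69 in rimonabant replicates 2 and 3, and 130 and 119 in TXX-1-10 replicates 2 and 3.

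TXX-1-10 against rimonabant addressed whether the related compounds differed on these genes. With 1 pair of compounds, ASNS was 2.26-fold higher with TXX-1-10, PHGDH 1.63-fold, SHMT2 1.42-fold, PSAT1 1.38-fold and PYCR1 1.21-fold. SHMT1 was 1.83-fold lower and ALDH18A1 1.43-fold lower. Of the 8 tested genes 4 were higher, 3 were lower and PSPH did not pass, where 64.5% of all genes passed in the fit of 9 libraries (25.1% higher and 39.4% lower) and 60.6% in that of 8 (26.7% and 33.9%). No gene of the 8 was called at the fold threshold by edgeR, while 7 had an unadjusted p under 0.05, and DESeq2 and limma on log2(FPKM + 1) called 0 as well. Over all genes 5.93% were called in the fit of 9 libraries and 6.41% in that of 8. The median of the 8 log2 differences was 0.24, against -0.08 and -0.04 over all genes.

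The log2 difference of ASNS was 1.18 (95% interval 0.92 to 1.44, adjusted p = 8.22e-06), and it was called, as were 6.96% of the 11200 genes and 2.61% in the higher direction. With limma on log2(FPKM + 1), which understates the change of low genes, it was 0.93, below the fold threshold, so this call was lost. For PHGDH it was 0.70 (0.41 to 0.997, adjusted p = 7.09e-04), for SHMT2 0.51 (0.38 to 0.64, adjusted p = 4.04e-05) and for PSAT1 0.46 (0.34 to 0.58, adjusted p = 3.28e-05). In the opposite direction, SHMT1 differed by -0.87 (-1.03 to -0.72, adjusted p = 6.24e-07) and ALDH18A1 by -0.52 (-0.62 to -0.42, adjusted p = 4.47e-06). PYCR1 was higher by 0.28 (0.11 to 0.44, adjusted p = 0.00677), but by 0.21 with an adjusted p of 0.0937 without rimonabant replicate 2.

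The compounds were not told apart, or only narrowly, on PSPH and MTHFD2. For PSPH the log2 difference was 0.21 with a 95% interval of -0.02 to 0.43 (adjusted p = 0.0982), while without TXX-1-10 replicate 3 it was 0.09 and without TXX-1-10 replicate 2 it passed (0.29, adjusted p = 0.0236). For MTHFD2 it was -0.15 (-0.28 to -0.03, adjusted p = 0.0289), and it did not pass without rimonabant replicate 1 or 3 or TXX-1-10 replicate 1 or 2 (adjusted p 0.0629 to 0.111). TMM scaling, which moved the median of all 4236 genes by 0.09 in this comparison, took MTHFD2 to -0.07 (adjusted p = 0.246) and PSPH to 0.26 (adjusted p = 0.0363). The interval of neither gene reached a 2-fold difference.

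**Figure D4:**
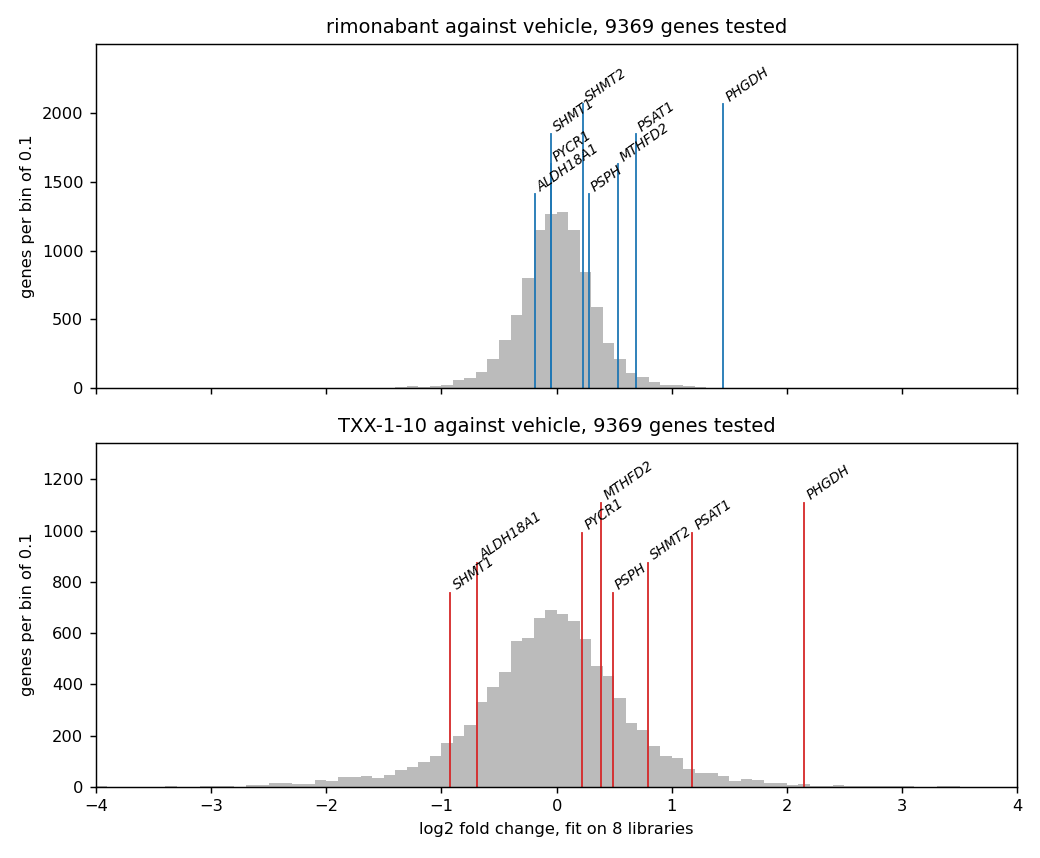
Histograms of the log2 fold changes of 9369 genes in the fit of 8 libraries (bins of 0.1, vertical axis in genes), rimonabant against vehicle above and TXX-1-10 against vehicle below, with lines at the 8 tested genes. The axis stops at 4 in both directions, which leaves out 6 genes of the lower panel. PHGDH lies in the upper tail of both panels, whereas SHMT1 lies near the centre with rimonabant and in the lower flank with TXX-1-10.

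Genes around the set in the same pathways did not rise together. Of 30 further genes of folate, methionine and glycine metabolism 20 were tested, of which 5 rose and 12 fell with TXX-1-10, with a median of -0.33. More genes fell than rose in the whole fits too, as given above. With rimonabant 3 rose and 9 fell (median -0.09). Without rimonabant replicate 1 and TXX-1-10 replicate 3, 5 rose and 10 fell with rimonabant, and the counts with TXX-1-10 were 5 and 12.

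Among the rises of this list was that of CTH, the enzyme that makes cysteine from cystathionine, which had 1.73 to 2.38 FPKM with vehicle, 4.54 and 5.64 with rimonabant and 12.0 to 13.6 with TXX-1-10. Its log2 fold change was 2.64 with TXX-1-10 (adjusted p = 1.64e-09) and 1.30 with rimonabant (adjusted p = 3.10e-05). In the other direction TYMS, which uses folate to make thymidylate, had 16.4 to 19.2 FPKM with vehicle, 19.82 and 19.84 with rimonabant and 5.17 to 6.20 with TXX-1-10. Its log2 fold change was -1.57 with TXX-1-10 (adjusted p = 1.10e-08) and 0.19 with rimonabant (adjusted p = 0.103).

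Of 11 further genes of proline and glutamate metabolism 7 were tested, and 3 rose and 2 fell with TXX-1-10 (median 0.18). GPT2, the mitochondrial alanine aminotransferase, rose by 0.71 with each compound, and the difference between them was -0.001 (95% interval -0.10 to 0.10). GLUL, glutamine synthetase, rose by 0.61 with TXX-1-10 (adjusted p = 2.58e-06) and had -0.04 with rimonabant (adjusted p = 0.564). PYCR3, a further pyrroline-5-carboxylate reductase, had a log2 fold change of -1.84 with TXX-1-10 (adjusted p = 6.50e-09) and -0.79 with rimonabant (adjusted p = 9.93e-05), opposite to the rise of PYCR1 with TXX-1-10. GLUD1, glutamate dehydrogenase, had -0.47 with TXX-1-10 and -0.10 with rimonabant, where it did not pass (adjusted p = 0.202).

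In the aspartate and asparagine list 3 of 6 genes were tested. GOT1, the cytosolic aspartate aminotransferase, rose by 0.19 with TXX-1-10 (adjusted p = 0.0215), while the mitochondrial GOT2 had -0.69 (adjusted p = 8.89e-07) and the argininosuccinate lyase ASL had -0.63 (adjusted p = 3.65e-04). None of the 3 passed with rimonabant by edgeR. Without rimonabant replicate 1 and TXX-1-10 replicate 3, 1 of the 3 fell with rimonabant.

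Of the 4 further lists, the one named regulators had the highest median change with both compounds. It also holds stress-response genes such as TRIB3, CHAC1, SESN2 and DDIT4, not only regulators of these enzymes. The list was chosen with earlier results of these data known. All 13 were tested, and 11 rose and 2 fell with TXX-1-10, 7 of them called higher, with a median log2 fold change of 1.21. Over all genes 4.2% were called higher in the fit of 9 libraries and 5.28% in that of 8. With rimonabant 8 rose and 3 fell, 4 of them called higher, with a median of 0.61, where 0.519% and 0.736% of all genes were called higher. DDIT3, a stress-induced transcription factor, had 10.8 to 11.3 FPKM with vehicle, 21.1 and 22.3 with rimonabant and 109 to 143 with TXX-1-10, and its log2 fold change was 3.49 with TXX-1-10 (adjusted p = 2.86e-11) and 0.97 with rimonabant. TRIB3, a pseudokinase induced with it, had 3.48 and 1.28. The falls were those of the translation factor EIF2S1 (-0.51) and the amino acid sensing kinase EIF2AK4 (-0.40) with TXX-1-10.

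ATF4 itself had 114, 109 and 114 FPKM with vehicle, 185, 159 and 161 with rimonabant, and 163, 160 and 194 with TXX-1-10. The compounds overlapped and both lay above vehicle. Its log2 fold change was 0.62 with TXX-1-10 (adjusted p = 7.67e-05) and 0.58 with rimonabant (adjusted p = 3.76e-04), and the difference between the compounds was 0.03 with a 95% interval of -0.15 to 0.22 (adjusted p = 0.741). MYC, which is also known to act on serine and proline synthesis genes, rose by 0.39 with TXX-1-10 (adjusted p = 1.15e-04), had -0.20 with rimonabant (adjusted p = 0.0147), and was higher with TXX-1-10 than with rimonabant by 0.59 (adjusted p = 9.34e-06).

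**Figure D5:**
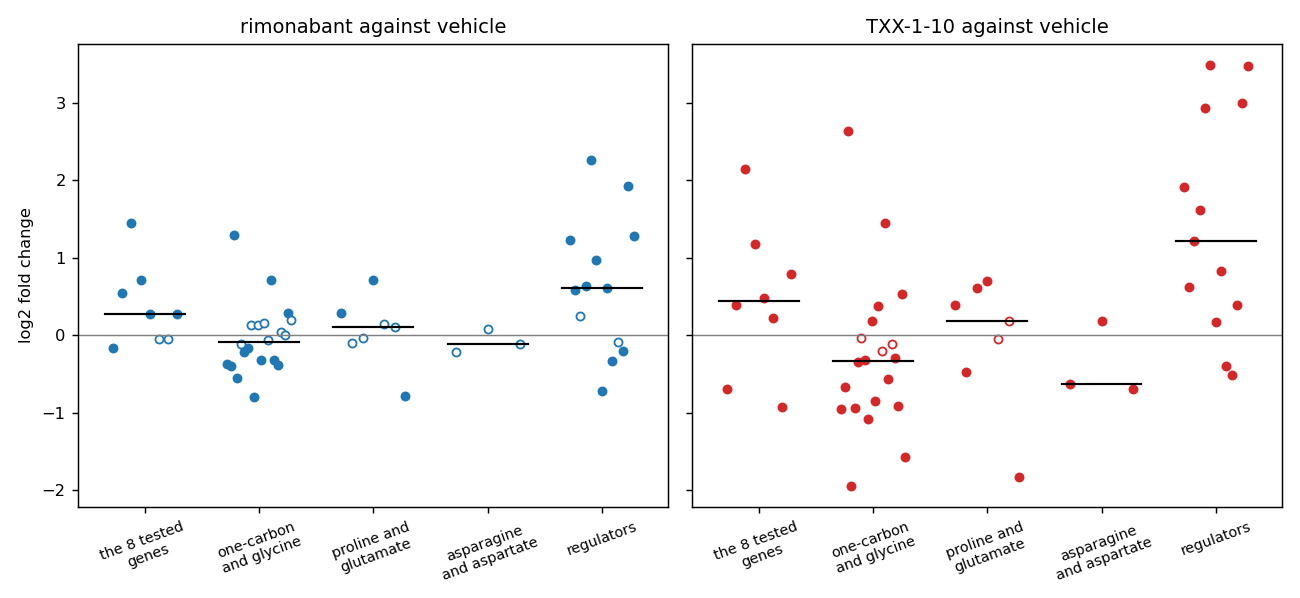
Log2 fold change (vertical axis) of each gene of 5 lists, rimonabant against vehicle on the left and TXX-1-10 against vehicle on the right. Filled points had an adjusted p under 0.05, open points did not, and bars are medians. The list named regulators has the highest medians (0.61 and 1.21), and the one-carbon and glycine list lies mostly below 0 with TXX-1-10.

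Genes whose levels followed ASNS or PHGDH most closely were found by Pearson's r of log2(FPKM + 1) over libraries, as a description. Over the 7 libraries that list ASNS, the closest of 11199 genes included EFL1, RBAK and ABHD4 (r 0.998 to 0.999). Over the 8 libraries that list PHGDH, the 5 closest of 9368 were NKIRAS2, UFM1, TFPI2, TPRA1 and ARID3A (r 0.994 to 0.997). The libraries of each treatment share its effect, and none of the genes named here is in the lists above.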

How the data were processed

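Polyadenylated RNA was sequenced in 9 libraries (Con, SR and TXX in the labels, for vehicle, rimonabant and TXX-1-10). Per the labels' processing notes, HISAT2 2.0.5 and featureCounts 1.5.0-p3 were used. The genome build, strand setting and treatment of shared exons are not given in the sources used here, and all 10 genes have the GENCODE release 29 (GRCh38) start and end. The authors deposited a whole-number read count per gene and, beside it, an FPKM value, the count divided by gene length and a library total, which was recovered and used as library size. Counts were fitted with edgeR 4.0.16 in R 4.3.3 (glmQLFit, glmQLFTest, Benjamini-Hochberg adjustment over all genes of a fit), among genes with a mean FPKM of at least 1. The standard error is the log2 fold change over the square root of F and is approximate. The fit of 7 libraries was added after seeing the data. The interval level was 95%.

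The 10 genes and the pathway lists were chosen with earlier results of these data known. Named genes are all 10, the 2 largest rises and falls with TXX-1-10 of each list, ATF4 and MYC, the 5 genes most like ASNS and PHGDH, and line markers. Some genes that this rule names are not reported here. All pairs of replicates differed by more than sampling noise (chi-square per degree of freedom 2.29 or more). The labels name no batch. Alternatives were TMM, DESeq2 1.42.0, other FPKM minimums, limma 3.58.1 on log2(FPKM + 1) or log2(FPKM + 0.1), a replicate block, 2 groups only, a correction for gene length, and each library left out. The fits were tested on simulated counts.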

Additional observations from a re-analysis of the deposited data

How the results depend on the processing

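Directions of the tested genes held under all alternatives run except that PYCR1 with rimonabant turned from -0.05 to 0.016 without rimonabant replicate 2 (range -0.12 to 0.016 with each library left out), not passing either way. The number of the 8 genes called was 2 with TXX-1-10, 1 with rimonabant and 0 between the compounds, and no single library changed it. A minimum of 5 FPKM, which removes PHGDH, gave 1 and 0 for the compounds against vehicle. With limma on log2(FPKM + 1), which shrinks low genes, rimonabant gave 0, PHGDH fell below the fold threshold there (0.72), and ASNS was 2.06 with TXX-1-10 and 1.13 with rimonabant. At any fold the counts were 8, 6 and 7.

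Over all genes, TXX-1-10 called 500 in the fit of 9 libraries, 1187 in that of 8 and 1567 in that of 7, rimonabant 48, 140 and 237, and the compounds differed on 251, 601 and 779. At any fold these were 3151, 7051 and 7667, then 2071, 4360 and 3917, then 2732, 5673 and 6197. In the fit of 7 libraries a minimum of 5 FPKM gave 935, 115 and 472, and limma on log2(FPKM + 1) gave 1031, 94 and 487, with 76 for rimonabant in the fit of 8. These alternatives test fewer genes or shrink low ones by construction. DESeq2 size factors moved the median of 4236 genes by 0.10 for TXX-1-10 against vehicle, from -0.09 to 0.006. TMM took it to 0.004, so the median below 0 depends on the library totals used.

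Replicate numbers did not pair compound with vehicle libraries (correlations of deviations -0.09 to 0.03 for TXX-1-10 and -0.06 to 0.04 for rimonabant). Between the compounds the correlations were strong but differed in sign, at -0.79, 0.80 and -0.59 for replicates 1, 2 and 3. Rimonabant replicate 1 and TXX-1-10 replicate 3 shared fewer counts on longer genes, as given above. The part of this in the correlations was not tested. With the replicate block 501, 48 and 250 genes were called in the fit of 9 libraries, and of the tested genes only PSPH with rimonabant no longer passed (0.26, adjusted p = 0.0964). MTHFD2 between the compounds also failed to pass with DESeq2, in a fit of 2 groups, with the length correction and in the fit of 8 libraries (adjusted p 0.0626 to 0.268), whereas PSPH passed there with DESeq2 and the length correction. Low counts limit ALDH1L2, and the composite core stood in 1.598% of promoters when only the gene's strand was searched.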

Other observations

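Some genes of the wider lists could be tested only in the fit of 7 libraries, which has 2 vehicle and 2 rimonabant libraries, and are named here after their values were seen. SFXN2, a mitochondrial carrier of the sideroflexin family to which the serine carrier SFXN1 belongs, had 2.02 and 2.25 FPKM with vehicle, 1.36 and 1.61 with rimonabant, and 0.413, 0.440 and 0.311 with TXX-1-10. Its log2 fold change was -2.46 with TXX-1-10 (adjusted p = 9.45e-08 in edgeR) and -0.52 with rimonabant (adjusted p = 0.0189). SFXN1, from the fit of 9 libraries, had -0.91 with TXX-1-10 (adjusted p = 9.26e-08) and 0.007 with rimonabant (adjusted p = 0.917). ASS1, which joins citrulline and aspartate, had 2.11 and 2.93 FPKM with vehicle, 3.31 and 3.77 with rimonabant, and 5.80, 6.22 and 7.05 with TXX-1-10, and rose by 1.33 with TXX-1-10 on the log2 scale (adjusted p = 1.24e-05 in edgeR). ASL, the next enzyme of that route, fell with TXX-1-10 in the fit of 8 libraries. GCSH, a carrier protein of glycine cleavage, had 2.04 and 1.59 FPKM with vehicle and 0.762, 0.710 and 1.03 with TXX-1-10, a log2 fold change of -1.12 (adjusted p = 2.56e-04 in edgeR). The means of SFXN2 and GCSH with TXX-1-10 were 0.388 and 0.835 FPKM, below the minimum of 1 FPKM for testing. Both genes passed that filter only through the vehicle and rimonabant groups, so their falls and p-values are conditional on that.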
